A study of Mus musculus with 2 samples.

Results

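The erythroid and immune cell miRNAs examined here are 6 genes that mark blood cells and their relatives: Mir451a and Mir144 of the red cell lineage, Mir223 of myeloid cells, Mir155 and Mir150 of lymphocytes and activated immune cells, and Mir142, which blood cells of nearly every lineage make. They were chosen by name from the 1973 annotated miRNA genes of the table, with earlier results of these data known. Mir142 was read through Mir142b, a gene model on the other strand of the same position, whose opposite-strand counts are the reads of the Mir142 strand. The material was forebrain of B6NCrl mouse embryos at embryonic day 14.5, sequenced as small RNA in 2 libraries, biological replicates 2 and 1 of 1 group per the labels, with no allele, treatment or other tissue named. Each is labelled as 1 forebrain, from a different collection day, although both labels carry 1 donor identifier and give the sex as pooled. From the labels, spread between embryos and technical spread cannot be told apart, and no comparison of conditions was possible. Whether blood had been rinsed from the tissue is not given in the sources used here.

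miRNAs are cut from hairpins in longer primary transcripts, usually by Drosha and then Dicer, and guide Argonaute proteins to messenger RNAs that match the seed near their 5′ end. Several are restricted to blood cells so strictly that in a solid organ they report red cells in its vessels and resident immune cells, which in the brain are chiefly microglia. The Mir144 and Mir451a hairpins lie in 1 primary transcript that the erythroid factor GATA1 switches on. miR-451a is the textbook exception to Dicer: its short hairpin is sliced by Argonaute-2.

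The mature sequences are shown because the strand and the position of the reads decide which RNA a count can stand for. They come from RefSeq on GRCm38.p6, the assembly also called mm10, and are written 5′ to 3′ with the seed, bases 2 to 8, in capitals. The erythroid pair gives these RNAs.
miR-451a: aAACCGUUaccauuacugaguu
miR-144-3p: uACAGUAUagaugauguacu
miR-144-5p: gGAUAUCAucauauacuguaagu
The immune cell genes give these, where miR-150-5p and the hairpin of Mir150 were not analysed here.
miR-223-3p: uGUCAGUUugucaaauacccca
miR-223-5p: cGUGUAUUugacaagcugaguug
miR-155-5p: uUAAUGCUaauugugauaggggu
miR-155-3p: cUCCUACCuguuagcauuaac
miR-150-3p: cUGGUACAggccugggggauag
miR-142a-5p: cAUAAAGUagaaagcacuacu
miR-142a-3p: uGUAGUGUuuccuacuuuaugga

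No seed was shared among the RNAs listed, and none of these RNAs shared its seed with another of the 1679 mature miRNAs in the RefSeq table. The longest stretch that any of them had in common with a hairpin elsewhere, on either strand, was the 13 nt between miR-142a-5p and Mir3964. For miR-451a it was 10 nt and for miR-155-5p and miR-155-3p 9 nt. The deposited tables total reads with several places in the genome apart from the gene counts, a limit that matters for miRNAs with copies. Among the RefSeq hairpins, a table that is not complete, these RNAs had no such copy.

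The fold of Mir451a differed from those of Mir144, Mir223, Mir155 and Mir142 in where the mature RNA lies. It is shown with the mature RNA in capitals, beside that of its neighbour Mir144 with miR-144-3p in capitals.
Mir451a: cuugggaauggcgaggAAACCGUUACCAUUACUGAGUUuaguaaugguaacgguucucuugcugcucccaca
Mir144: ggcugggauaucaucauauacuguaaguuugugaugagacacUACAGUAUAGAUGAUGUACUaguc
In the minimum free energy fold from RNAfold, miR-451a filled bases 17 to 38 of the 72 nt hairpin, and all 4 bases of the terminal loop, 35 to 38, were part of it. miR-144-3p lay at bases 43 to 62 of 66, clear of a loop at bases 31 to 36. No mature RNA of Mir223, Mir155 or Mir142 reached into its terminal loop either. Folds are predictions from sequence, not measurements.

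On mm10, Mir144 (ENSMUSG00000065401.1) lies at chr11:78073005-78073070 and Mir451a (ENSMUSG00000070065.1) at chr11:78073170-78073241, both on the plus strand and within no other gene annotated on that strand. Mir451b covers the bases of Mir451a on the minus strand. The hairpins are 99 bases apart. Mir223 (ENSMUSG00000076066.1) lies at chrX:96242817-96242926 in an exon of the non-coding gene F630028O10Rik, and Mir155 (ENSMUSG00000065397.1) at chr16:84714140-84714204 in an exon of its host Mir155hg. Mir150 (ENSMUSG00000065495.1) lies at chr7:45121757-45121821 with no host. The model Mir142b (ENSMUSG00000065420.2) covers chr11:87756841-87756955 on the minus strand, and the hairpin of Mir142 at chr11:87756864-87756927 on the plus strand sits wholly inside it, in an intron of Mir142hg.

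**Figure D1:**
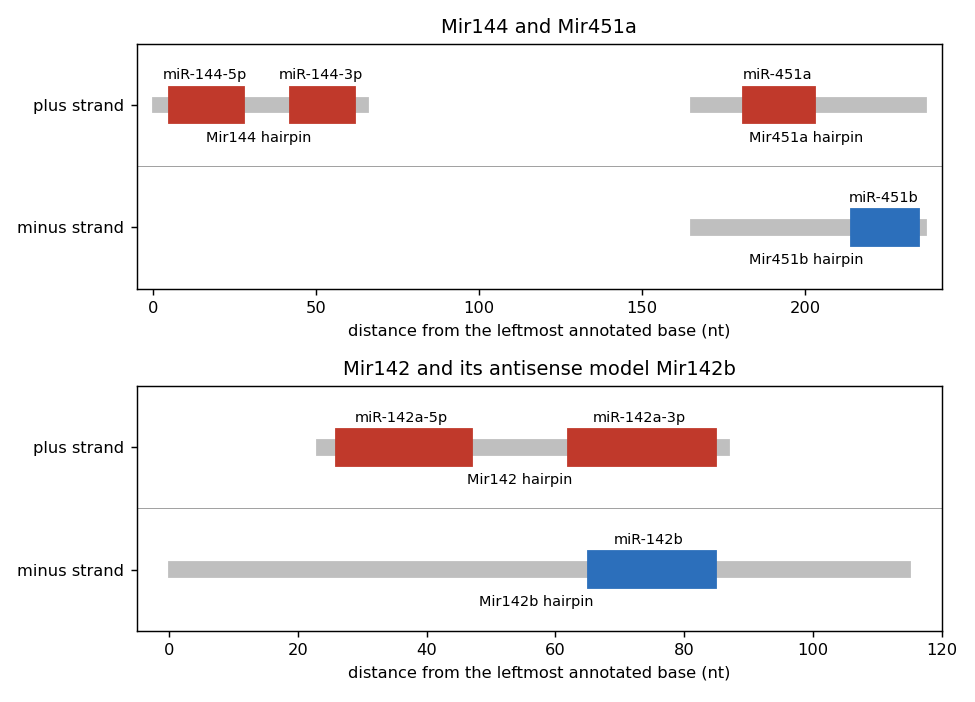
Hairpins (grey) and mature miRNAs (coloured) at the Mir144 and Mir451a locus and at Mir142, by strand, in nt from the leftmost annotated base. The 64 nt hairpin of Mir142 lies within the 115 nt of Mir142b on the other strand, and Mir451b covers the same 72 nt as Mir451a.

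Assigned miRNA counts numbered 7946585 in replicate 2 and 7080317 in replicate 1, so that 1 count was worth 0.126 and 0.141 CPM (counts per 1000000 counts on the strand of miRNA genes). Neural miRNAs of the labelled tissue were present, with Mir137 at 7274 and 7955 CPM and Mir92b at 2786 and 3407 CPM in replicates 2 and 1. No library stood apart in depth, with multi-mapping reads at 42.2% of replicate 2 and 43.3% of replicate 1.

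All 6 genes were detected, defined as 10 or more counts in both libraries, which 20.3% of the 1973 genes reached. Because the genes were chosen with earlier results of these data known, this is a description. Together they held 865 CPM in replicate 2 and 724 CPM in replicate 1, or 0.0795% ± 0.00996 of the miRNA counts (SD, n = 2). The most abundant gene, Mir99a, stood 658-fold above the highest of them. In bulk tissue, fewer cells of a type and less RNA per cell cannot be told apart. Their median of the mean levels was 75.0 CPM, against 81.5 CPM for the 400 detected genes.

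The erythroid pair made up most of the sum. Mir451a, which promotes the late maturation of red cells, had 4119 counts in replicate 2 and 2806 in replicate 1, or 518 and 396 CPM. It averaged 457 ± 86.3 CPM (SD, n = 2) and ranked 110 among all genes. It alone held 59.9% of the counts of the 6 genes in replicate 2 and 54.7% in replicate 1. Mir144, its partner in the same transcript, had only 145 counts in replicate 2 and 26 in replicate 1, or 18.2 and 3.67 CPM, and ranked 288. Its average of 11.0 CPM had an SD of 10.3 CPM (n = 2), nearly as large as the mean.

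The Mir142 strand was the highest of the immune genes. The miRNA, needed for the normal make-up of many blood lineages, had 1090 counts in replicate 2 and 979 in replicate 1, or 137 and 138 CPM, an average of 138 ± 0.781 CPM (SD, n = 2). That SD is far below counting error. The 95% Poisson intervals were 129 to 146 CPM in replicate 2 and 130 to 147 CPM in replicate 1. The Mir142b strand itself had 0 counts in both libraries, which allows at most 0.378 CPM in replicate 2 and 0.424 CPM in replicate 1. The counts do not separate miR-142a-5p from miR-142a-3p.

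Mir223, which restrains the production and activation of granulocytes, had 684 counts in replicate 2 and 538 in replicate 1, or 86.1 and 76.0 CPM. Mir155, induced when lymphocytes and macrophages are activated, had 517 and 516 counts, or 65.1 and 72.9 CPM. Mir150, abundant in mature lymphocytes and known for its target Myb, had 319 and 262 counts, or 40.1 and 37.0 CPM. Both libraries of each thus lay close together, and the means were 81.0 ± 7.13, 69.0 ± 5.53 and 38.6 ± 2.22 CPM for Mir223, Mir155 and Mir150 (SD, n = 2).

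**Figure D2:**
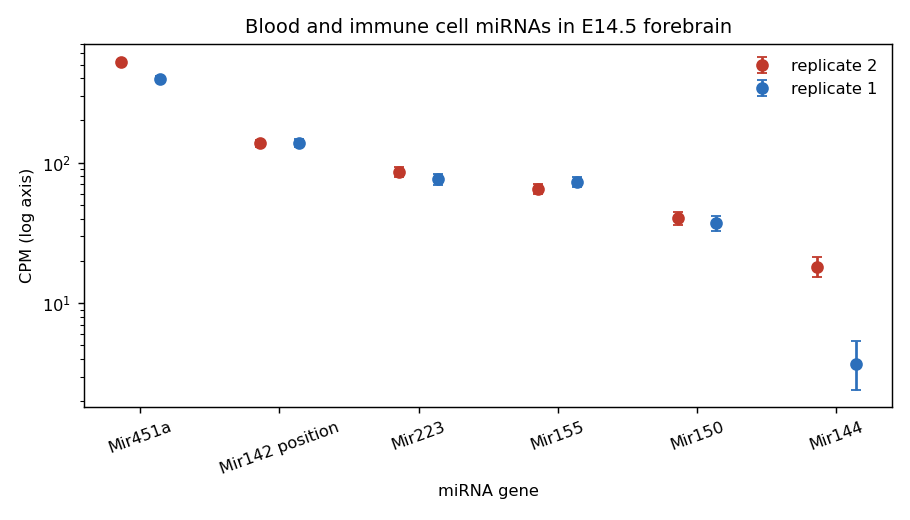
CPM of each gene in replicate 2 (red) and replicate 1 (blue) on a log axis, with exact 95% Poisson intervals of the counts. Mir451a stands highest at 518 and 396 CPM, and Mir144 lowest, with 18.2 CPM in replicate 2 and 3.67 CPM in replicate 1.

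The order from high to low was Mir451a, Mir142, Mir223, Mir155, Mir150 and Mir144, and it was the same in each library. Neighbours in this order did not overlap between the libraries, but Mir223 and Mir155 came within counting error of each other in replicate 1, where the 95% Poisson intervals were 69.7 to 82.7 and 66.7 to 79.4 CPM. A read of a mature miRNA comes from 1 RNA whatever the length of its hairpin, so CPM was not divided by length. Per 100 nt of gene model, Mir451a stayed highest at 635 CPM and Mir144 lowest at 16.6, while Mir155 stood at 106, above Mir223 at 73.7.

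**Figure D3:**
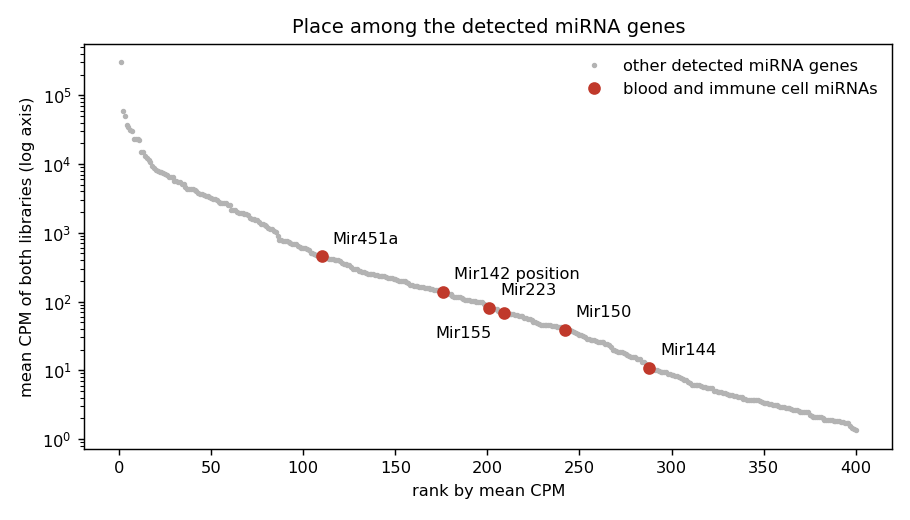
Mean CPM of the 400 detected miRNA genes in order of rank, on a log axis, with the blood and immune cell genes in red. They run from rank 110 (Mir451a) to rank 288 (Mir144), with Mir142 at 176, Mir223 at 201, Mir155 at 209 and Mir150 at 242.

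Between the libraries, Mir144 was higher in replicate 2, Mir451a differed in the same direction by less than 2-fold, and none of the 4 immune genes was called. For every gene of the table, its count and the rest of the library were compared by Fisher's exact test (two-sided), and p-values over all 1973 genes were adjusted by the Benjamini-Hochberg method. A call needed an adjusted p under 0.05 and CPM at least 2-fold apart. The test speaks of these 2 libraries and takes in counting error alone. Mir144 was called, as 1 of the 6 genes, where 0.355% of all genes were called, 0.203% as higher in replicate 2 and 0.152% as higher in replicate 1. Of the 400 detected genes, which include all 6, 4 were called. Mir144 had 4.97-fold more CPM in replicate 2 (95% counting interval 3.26 to 7.86, adjusted p = 4.36e-17 in Fisher's exact test). That was the largest log2 ratio toward replicate 2 among the 400 detected genes, at 2.31. Outside them Mir669f, with 73 counts in replicate 2 and 7 in replicate 1, had a larger one of 3.22 and was called too. Other genes under the detection minimum also had larger ones, on few counts, and were not called. An example is Mir7037 at 2.83, with 8 counts in replicate 2 and 1 in replicate 1. In edgeR's exact test, in which 0.101% of the genes were called, the adjusted p of Mir144 was 5.47e-05. The dispersion there was estimated over all genes from the same 2 libraries, so this holds no replicate spread of Mir144 and is not further evidence for the call.

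Mir451a was 1.31-fold higher in replicate 2 (95% counting interval 1.25 to 1.37). It passed Fisher's exact test only with no minimum fold (adjusted p = 7.25e-27), as did 9.02% of all genes, 3.19% toward replicate 2 and 5.83% toward replicate 1. Most genes of the table were under the detection minimum: among the 400 detected genes 175 passed, or 43.8%, so passing was common among detected genes. In edgeR's exact test the adjusted p of Mir451a was 1. Its log2 ratio of 0.39 was the 33rd highest of the 400 detected genes, and its size ranked 106. Of those genes 151 were higher in replicate 2 and the median log2 ratio was -0.09. The median gap between the libraries was 1.17-fold over these genes, smaller than that of Mir451a.

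With total-count scaling, none of the 4 immune genes passed Fisher's exact test with or without a minimum fold. The ratio of replicate 2 over replicate 1 was 1.13 for Mir223 (95% counting interval 1.01 to 1.27, adjusted p = 0.278 in Fisher's exact test) and 0.893 for Mir155 (0.789 to 1.01, adjusted p = 0.560). For Mir150 it was 1.08 (0.918 to 1.28) and for the Mir142 strand 0.992 (0.909 to 1.08), both with an adjusted p of 1. The result for Mir223 depended on the scaling: with no minimum fold it passed Fisher's exact test under TMM (adjusted p = 0.0220), median-of-ratios factors (0.00792) and the total without Mir99a (0.0311), at log2 ratios of 0.25 to 0.29. Over all alternatives with a test its adjusted p lay between 0.00792 and 1. The widest of these counting intervals, that of Mir150, reached 1.28. The direction for Mir142 turned with the scaling, so none is given.

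**Figure D4:**
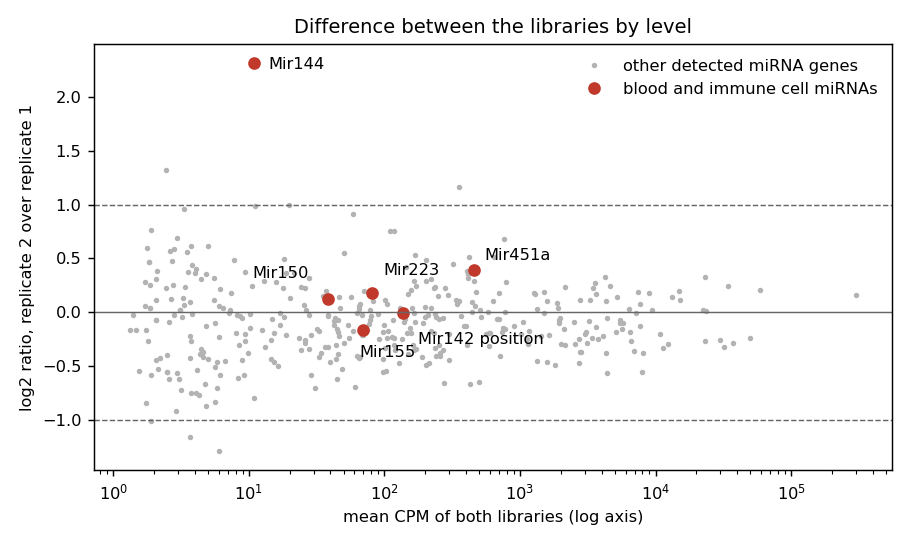
Log2 ratio of replicate 2 over replicate 1 against mean CPM for the 400 detected genes, with the blood and immune cell genes in red and dashed lines at 2-fold. Among the genes drawn, Mir144 stands highest at 2.31, with Mir451a at 0.39 and the 4 immune genes between -0.16 and 0.18. Mir669f, at 3.22, and other genes under the detection minimum are not drawn.

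Summed by group, the pair of Mir451a and Mir144 stood at 537 CPM in replicate 2 and 400.0 CPM in replicate 1, a ratio of 1.34 (95% counting interval 1.28 to 1.41). Mir451a held 4119 of the pair's 4264 counts in replicate 2 and 2806 of 2832 in replicate 1. The 4 immune genes stood at 328 and 324 CPM, a ratio of 1.01 (0.958 to 1.07). There were 1.63 erythroid counts per immune count in replicate 2 and 1.23 in replicate 1. This quotient needs no library total, and it differed 1.32-fold between the libraries (1.23 to 1.43). The immune group is a mixture of myeloid and lymphoid genes and Mir142, not a lineage. Both groups were formed with these counts known, so the quotient is a description.

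The Mir144 share of the pair is likewise free of scaling. Mir144 made up 3.40% of the pair's counts in replicate 2 (exact Clopper-Pearson 95% interval 2.88 to 3.99) and 0.918% in replicate 1 (0.601 to 1.34), a mean of 2.16% ± 1.76 (SD, n = 2). These intervals do not overlap. Put as counts, there were 28.4 reads of Mir451a for each of Mir144 in replicate 2 and 108 in replicate 1 (p = 1.87e-12 by Fisher's exact test, two-sided, on the 4 counts, counting error only). What sets the Mir144 share was not tested.

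The endothelial miRNA Mir126a, which marks the vessels that hold the blood, had 22365 CPM in replicate 2, against 22103 CPM in replicate 1. Per 1000 counts of Mir126a there were 23.2 of Mir451a in replicate 2 and 17.9 in replicate 1, a ratio of 1.29 (95% counting interval 1.23 to 1.36). For Mir144 the values were 0.816 and 0.166, a ratio of 4.91 (3.22 to 7.77). The 4 immune genes together came to 14.7 per 1000 counts of Mir126a in both libraries.

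**Figure D5:**
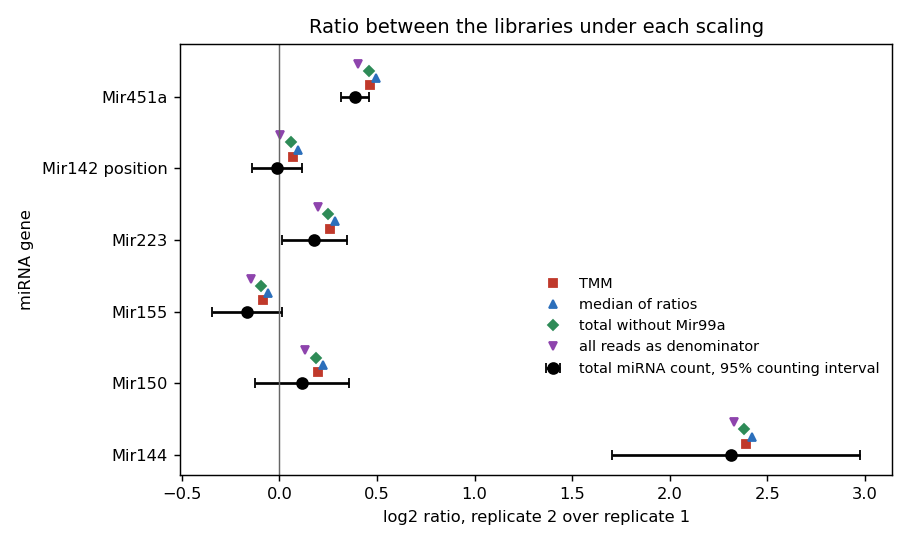
Log2 ratio of replicate 2 over replicate 1 per gene with total-count scaling (black, 95% counting interval) and with 4 other scalings (coloured). Mir144 stays between 2.31 and 2.42 and Mir451a between 0.39 and 0.49, whereas the Mir142 position lies between -0.01 and 0.09.

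Of 10 further names of blood cell miRNAs and their genes looked up, 4 correspond to genes of the table, and the rest were not analysed under names of their own. Mir146, the gene of miR-146a, a brake on inflammatory signalling, had 207 counts in replicate 2 and 157 in replicate 1, or 26.0 and 22.2 CPM. Mir486, which is abundant in red cells and muscle, had 52 and 40 counts, or 6.54 and 5.65 CPM. Mir486b, annotated as Mir3107, lies on the other strand of Mir486, and copies of the Mir486 sequence were not looked for. Reads with several places in the genome would be missing from these counts, which may therefore be too low. This was not tested. Mir146b was under the detection minimum with 6 counts in each. Mir342, found in lymphocytes and also in brain, was at 6436 and 6318 CPM, far above all 6 of the blood and immune cell genes. None of the 4 differed 2-fold between the libraries.

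Strand separated the reads cleanly at these loci. Mir451b, annotated on the other strand of Mir451a with a hairpin of the same 72 bases, had 0 counts in both libraries, read as the opposite strand of Mir451a. Opposite-strand counts were also 0 at Mir144, Mir223 and Mir155 in both libraries, and at Mir150 there were 0 in replicate 2 and 2 in replicate 1.

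Genes of the most similar level were found by the distance of log2(CPM + 1) in both libraries. For Mir451a they were Mir676 (506 CPM in replicate 2, against 415 CPM in replicate 1) and Mir323 (503 and 443 CPM). Mir142 was closest to Mir214 (135 CPM in each) and Mir331, Mir223 to Mir383 and Mir7j, Mir155 to Mir24-2 and Mir877, and Mir150 to Mir26a-2 and Mir450b, all at most 0.12 log2 units away. Mir144 had no such neighbour: the nearest gene, Mir141, had 14.8 CPM in replicate 2 and 7.49 CPM in replicate 1, 0.91 log2 units away, followed by Mir3064 at 1.16. With 2 libraries, likeness is mostly likeness of level.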

How the data were processed

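The authors deposited 1 table of raw read counts per library, with 1973 miRNA genes in 3 count columns. The tables have no header: the columns were read as either strand, strand of the gene and opposite strand from their values, the first being the sum of the others for each gene. Per the README deposited with each sample, counts were made from 1 alignment file on mm10 with GENCODE M4. The aligner, the counting tool and their options are not given in the sources. Totals of unmapped, multi-mapping, unannotated and ambiguous reads name no gene and stayed out of library sizes: 61.5% of the reads in replicate 2 and 61.9% in replicate 1.

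Names came from GENCODE M21, the same assembly, by ID (1894 matched). CPM used the counts on the strand of miRNA genes, with opposite-strand counts for Mir142b, which are not part of that total. With 2 libraries in 1 group, tests compared the libraries with Fisher's exact test (SciPy 1.17.1, tested on simulated counts). Alternatives used edgeR 4.0.16 and size factors from DESeq2 1.42.0. Hairpins were folded with RNAfold 2.7.2. Intervals and floors (3 counts) are at 95% and cover counting error only. They and Fisher's exact test take every read as independent, which PCR copies are not. Intervals may therefore be too narrow and p-values too small. The genes, the lists and the tests were chosen with earlier results of these data known. Genes named are the 6, the further blood cell list, neighbours within 10000 bp, the 2 nearest by level per gene, lineage markers and Mir99a. Mir669f and Mir7037 are named for their larger ratios, with the results known.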

Additional observations from a re-analysis of the deposited data

Results flagged for a closer look

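At Mir486, reads on the opposite strand, which no comparison uses, numbered 6 in replicate 2 and 8 in replicate 1, above the limit of 3 that a count of 0 allows. GENCODE M21 places Mir3107 on that strand. A group of 2 libraries is too small for a test of outlying samples.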

How the results depend on the processing

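No paired analysis was possible because the libraries form 1 group. A ratio between the libraries needs both, so none was computed without either; the share of Mir144 in the pair was 3.40% without replicate 1 and 0.918% without replicate 2. The summed share of 0.0795% became 0.114% of a total without Mir99a and 0.0304% of all reads. It was 0.0657% with own-strand counts for every gene and 0.0337% without Mir451a, an alternative chosen after seeing the data, as were the levels per 100 nt and per count of Mir126a. With no minimum fold, 2 of the 6 genes were called in place of 1, the second being Mir451a. Mir144 was called under all 7 alternative call rules. The 1.5-fold minimum, no minimum fold and testing only genes with 10 counts in either library could not have removed this call. They loosen the main rule or use the same p-values over fewer genes. The edgeR rule, as stated above, is not further evidence. The log2 ratio of the Mir142 position, -0.01, turned to 0.0680 with TMM, 0.0949 with median-of-ratios factors, 0.0580 without Mir99a and 0.00482 with all reads. Median-of-ratios scaling moved the median of all detected genes by 0.11. Over all genes 7 were called, 4 of them higher in replicate 2 and 3 in replicate 1. TMM gave 6 and 2, median of ratios 7 and 2, the total without Mir99a 6 and 2, a 1.5-fold minimum 10 and 10, no minimum fold 63 and 115, testing only genes with 10 counts in either library 8 and 9, and edgeR 2 and 0. All 6 genes were detected at a minimum of 1 count and 5 at 100 counts. Depth limits Mir144 most, with 26 counts in replicate 1.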
